A study of Danio rerio with 16 samples.

Results

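Heat shock chaperones are proteins that help other proteins fold, and 7 of their genes are described here: hsp70.3, hspa8b and dnajb1b of the cytosolic Hsp70 system, the cytosolic Hsp90 genes hsp90aa1.1 and hsp90aa1.2, the mitochondrial hspe1 and the endoplasmic reticulum gene hsp90b1. The genes were chosen with earlier results of these data known. Every probe set annotated to 1 of these symbols and to no other was then taken, whatever its values. This gave 8 of the 15502 probe sets on the array once 115 controls were left out. All genes had 1 such probe set except hsp90aa1.2, which had 2, told apart here by the ends of their names, A1_at and S1_at. The probe set of hsp70.3 has the ending _x_at, which Affymetrix gives to sets whose probes may also match other sequences, so its signal may include near-identical hsp70 copies and is uncertain as to the gene.

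The series holds 16 one-colour Affymetrix arrays of zebrafish RNA. At 36 h the groups were Foggy embryos (6 arrays) and WT embryos (4 arrays), both described as embryonic brain. At 12 somites they were embryos injected with Foggy(DelCter) RNA (3 arrays, called DelCter below) and embryos injected with control RNA (3 arrays). The labels give neither the mutant allele, nor the strain, nor what the DelCter or control RNA encodes, nor whether arrays came from separate clutches, so p-values measure only the spread between these arrays. In bulk RNA, fewer cells of a type and less RNA per cell cannot be told apart.

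Hsp70 binds exposed stretches of unfolded proteins in cycles of ATP hydrolysis, which J-domain proteins such as dnajb1b stimulate. Hsp90 acts later, on clients such as kinases and hormone receptors, and in zebrafish skeletal muscle hsp90aa1.1 works with the cochaperone Unc45b in myosin folding. Heat shock factors induce many of these genes under stress, while family members such as hspa8 and hsp90ab1 are produced constitutively. The zebrafish foggy locus is supt5h, which encodes Spt5, a subunit of the DSIF complex that both holds back and assists RNA polymerase II, and the Hsp70 genes of Drosophila are the textbook case of genes with a polymerase paused near the start site.

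Some facts of the arrays bear on every value below. The 36 h arrays fell into 2 sets by the number in their titles: numbers 1 to 3 (3 Foggy arrays and 1 WT array) and numbers 4 to 6 (3 of each). Pearson correlations of log2 values across all probe sets were 0.984 to 0.992 within the first set, 0.957 to 0.992 within the second and 0.831 to 0.872 between them. supt5h, the gene of the mutant locus, read 40.1, 47.0 and 38.6 intensity units on Foggy arrays 4 to 6, against 197, 231 and 167 on WT arrays 4 to 6. On Foggy arrays 1 to 3 it read 258, 245 and 254 units, against 210 units on WT array 1, so the libraries labelled Foggy in that set did not have the low supt5h signal, and Foggy and WT are compared within sets. Summed brain marker intensities (21 genes) were 23124 to 23461 units on Foggy arrays 1 to 3 and 23548 units on WT array 1, but 4095 to 4335 units on Foggy arrays 4 to 6 and 6928 to 8302 units on WT arrays 4 to 6. Summed skeletal muscle marker intensities (33 genes) were 3897 to 4066 units on Foggy arrays 1 to 3 and 9242 units on WT array 1. On arrays 4 to 6 they were 15158 to 22512 units in Foggy and 48956 to 76505 units in WT. The arrays described as brain thus also gave muscle signal, and how much of their RNA came from brain was not tested. The titles of the arrays at both stages name brain and adrenal medulla, and the adrenal medulla has 5 marker genes on the array. They were set against the highest of the 17 tag controls, spots for sequences absent from the sample. Markers above it on no array were th and dbh in Foggy 1 to 3 and WT 1, and dbh in Foggy 4 to 6. In WT 4 to 6 it was th, in DelCter th, dbh, chga and scg2a, and in control RNA th and scg2a. The brightest marker, hand2, averaged from 306 units in WT 4 to 6 to 583 units in DelCter. Whether the hand2 signal came from adrenal medulla was not tested.

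hsp70.3, an Hsp70 gene of the stress-inducible cluster, was the member with the largest rise in both comparisons with 3 arrays a group. It read 72.9, 71.0 and 79.9 units on Foggy arrays 4 to 6, against 24.7, 16.1 and 28.5 units on WT arrays 4 to 6. The groups did not overlap, and the difference was 1.22 ± 0.13 (SE, n = 3 each, limma adjusted p = 0.00046) on the log2(intensity + 16) scale used throughout, where the added 16 units damp the change of dim genes. In DelCter embryos it read 219, 195 and 237 units, against 22.5, 24.5 and 27.5 units in control RNA embryos. Every DelCter array was far above every control array, with a difference of 2.51 ± 0.12 (SE, n = 3 each, limma adjusted p = 1.34e-06). The signal without the mutation or the DelCter RNA was near background: the highest tag control on the arrays ranged from 10.8 to 34.4 units, and 2 of 3 control RNA arrays and 3 of 3 WT arrays 4 to 6 exceeded their own highest tag control. The size of both differences therefore depends on the added constant: with 1 unit added they were 1.62 and 3.08, and with 64 units 0.69 and 1.66, at each constant with an adjusted p under 0.05.

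On Foggy arrays 1 to 3 hsp70.3 read 16.3, 22.2 and 23.1 units, against 17.7 units on WT array 1, and no array of that set exceeded its highest tag control. Signal from hsp70.3 was thus not detectable in either group there, and the difference was 0.11 ± 0.18 (SE, 3 arrays against 1, limma adjusted p = 0.897). The Foggy effect in numbers 4 to 6 exceeded that in numbers 1 to 3 by 1.11 ± 0.22 (adjusted p = 0.0212), a call that was lost with 1 unit added (adjusted p = 0.0695). The rise in DelCter embryos was larger than that in Foggy embryos 4 to 6: the 36 h effect minus the 12-somite effect was -1.14 ± 0.18 (limma, all 16 arrays, adjusted p = 0.0004). A probe set annotated jointly to hsp70.1, hsp70l and hsp70.3, which is no member, read 105, 122 and 110 units on Foggy arrays 4 to 6 and 24.9, 39.9 and 57.1 units on WT arrays 4 to 6. In DelCter embryos the joint probe set read 236, 208 and 252 units, against 38.0, 19.7 and 35.3 units in control RNA embryos. It was also higher on every Foggy array 4 to 6 and every DelCter array, and the single gene behind it cannot be named.

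**Figure D1:**
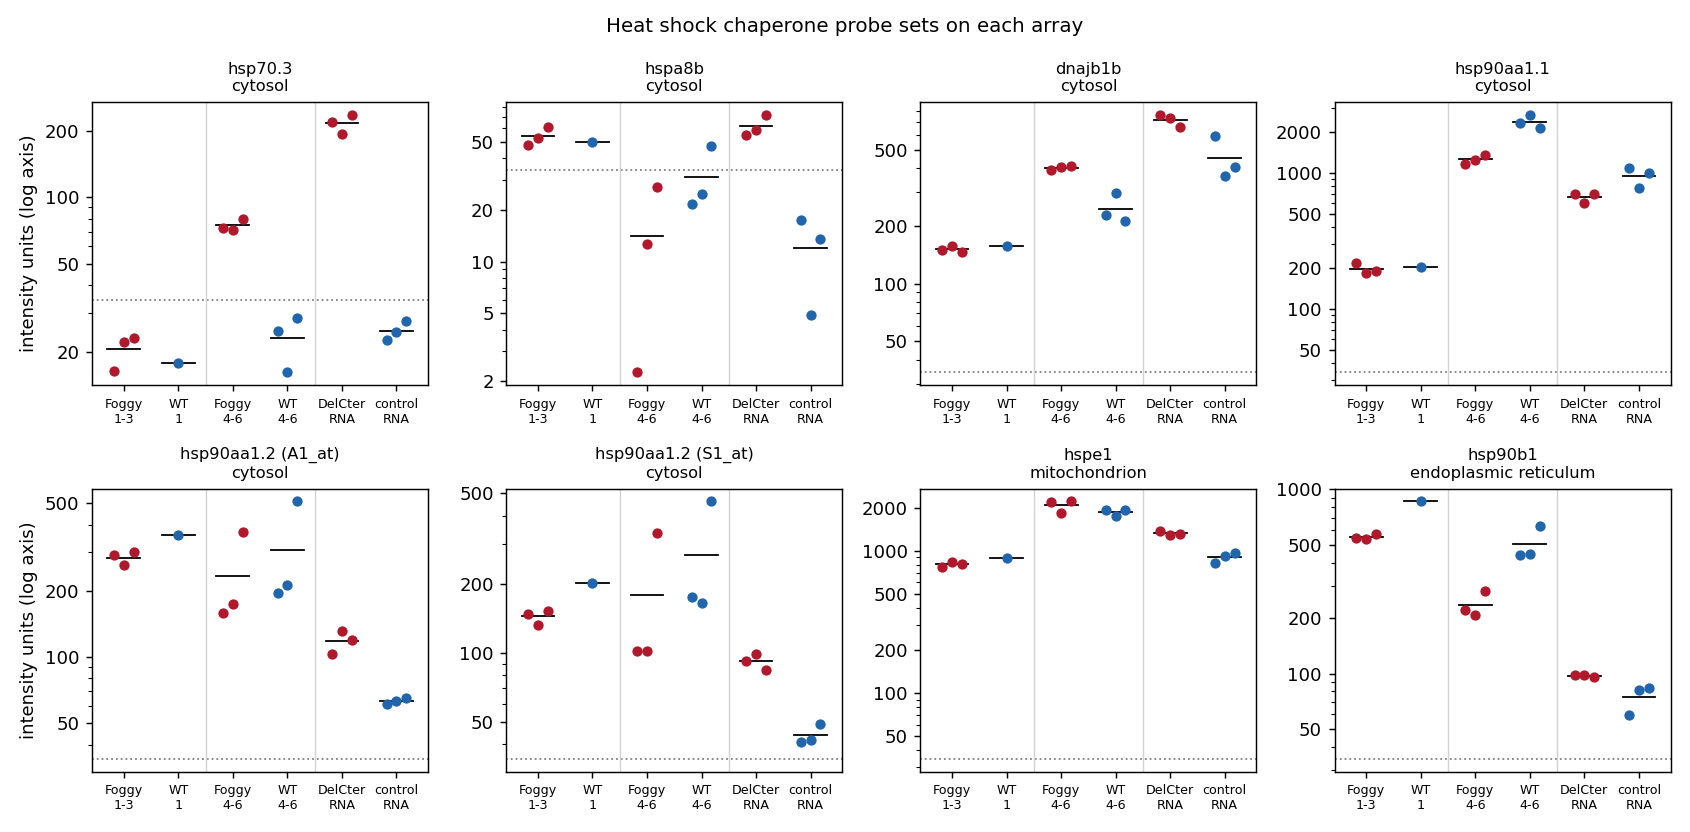
Intensity (log axis) of the 8 probe sets on each of the 16 arrays, 1 panel per probe set, with Foggy or DelCter arrays in red left of their WT or control RNA arrays in blue; points are arrays, black bars are group means and the dotted line is the highest tag control of all arrays (34.4 units). The hsp70.3 points of Foggy 4 to 6 (71.0 to 79.9 units) and DelCter (195 to 237 units) stand above the line, and the other 4 groups lie below it.

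dnajb1b encodes a J-domain protein of the DnaJB1 type, which delivers unfolded proteins to Hsp70. It read 391, 408 and 411 units on Foggy arrays 4 to 6, against 230, 297 and 213 units on WT arrays 4 to 6, and the groups did not overlap. The rise was 0.65 ± 0.13 (SE, n = 3 each, limma adjusted p = 0.0092). In DelCter embryos it read 764, 732 and 655 units, against 588, 364 and 408 units in control RNA embryos. Control array 1 was the nearest to the DelCter arrays, and the rise of 0.67 ± 0.17 (adjusted p = 0.0261) no longer passed without control array 2, control array 3, DelCter array 1 or DelCter array 2 (adjusted p 0.0769 to 0.0935). The effects at the 2 stages differed by 0.01 (95% interval -0.45 to 0.47). In the first set dnajb1b read 150, 157 and 146 units on Foggy arrays, against 157 units on WT array 1. The difference was -0.06 ± 0.16 (3 arrays against 1). The Foggy effects in the 2 sets differed by 0.72 ± 0.20, with 1 WT array in numbers 1 to 3. This difference between sets was not called in the main fit and was called in 4 of 15 alternative runs.

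hspa8b, named as a relative of the constitutive Hsp70 gene hspa8, was dim on all arrays and higher only with DelCter RNA among the comparisons of Foggy or DelCter with their controls. It read 55.2, 58.8 and 72.1 units in DelCter embryos, against 17.4, 4.86 and 13.5 units in control RNA embryos, where none of the 3 arrays exceeded its highest tag control. The control level is therefore only a bound, and hspa8b was at least 3.71-fold higher in DelCter embryos (fitted difference 1.50 ± 0.17, SE, n = 3 each, limma adjusted p = 0.00036). On Foggy arrays 4 to 6 it read 2.26, 12.6 and 27.2 units, against 21.7, 24.7 and 47.6 units on WT arrays 4 to 6. The groups overlapped, 1 of 3 Foggy arrays exceeded its tag controls, and the difference of -0.67 ± 0.30 did not pass the test (adjusted p = 0.140). Without Foggy array 6 it was -1.003 and passed (adjusted p = 0.0310), and without Foggy array 4 it was -0.34 (adjusted p = 0.394). It also passed with the title number as a replicate block (adjusted p = 0.0138), though the numbers were not taken as pairs at 36 h. The effects at the 2 stages differed by -2.19 ± 0.35 (adjusted p = 0.00059). In the first set hspa8b read 47.8, 52.7 and 61.5 units on Foggy arrays, against 49.9 units on WT array 1.

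The Hsp90 gene hsp90aa1.1 was lower in Foggy embryos 4 to 6. It read 1163, 1251 and 1366 units on Foggy arrays 4 to 6, against 2345, 2687 and 2149 units on WT arrays 4 to 6. All Foggy arrays were below all WT arrays, and hsp90aa1.1 fell by 0.91 on the log2 scale (SE 0.12, n = 3 each, limma adjusted p = 0.0012). In DelCter embryos it read 702, 603 and 704 units, against 1085, 773 and 1010 units in control RNA embryos. These groups did not overlap either, but the difference of -0.49 ± 0.15 fell just short of the threshold (adjusted p = 0.0537). The difference passed with the title number as a replicate block (adjusted p = 0.0228) and without control array 2 (adjusted p = 0.0211). Without control array 1 the difference was -0.39. With single arrays left out the adjusted p ran from 0.0211 to 0.161. Of 14 alternatives, 7 passed and 7 did not. On Foggy arrays 1 to 3 it read 217, 185 and 192 units, against 203 units on WT array 1, a difference of -0.06 ± 0.16 (adjusted p = 0.958). The Foggy effect differed between the sets by -0.85 ± 0.19 (adjusted p = 0.0369), a call that was lost at an added constant of 1 (adjusted p = 0.0665) and without a filter (adjusted p = 0.0680). It was also lost without Foggy array 1, 2, 3, 4 or 5 or WT array 4 or 5 (adjusted p 0.0615 to 0.0777).

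hsp90aa1.2 lies directly beside hsp90aa1.1 in the RefSeq annotation of assembly GRCz12tu. In the injected embryos its 2 probe sets were higher with DelCter RNA. The A1_at probe set of hsp90aa1.2 read 103, 132 and 120 units in DelCter embryos, against 61.0, 62.9 and 65.2 units in control RNA embryos, a rise of 0.76 ± 0.12 (SE, n = 3 each, limma adjusted p = 0.0034). The S1_at probe set read 92.2, 99.4 and 84.4 units in DelCter embryos, against 40.8, 41.7 and 49.0 units in control RNA embryos, a rise of 0.85 ± 0.12 (adjusted p = 0.0016). No DelCter array overlapped a control array in either probe set, so in the same embryos hsp90aa1.2 was higher while its neighbour hsp90aa1.1 had the negative difference given above. Both calls were lost when the spread was taken from all 16 arrays (adjusted p = 0.0849 and 0.114).

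At 36 h hsp90aa1.2 did not pass the test between Foggy and WT embryos. Its A1_at probe set read 159, 175 and 370 units on Foggy arrays 4 to 6, against 196, 213 and 510 units on WT arrays 4 to 6. Its S1_at probe set read 103, 102 and 336 units on Foggy arrays 4 to 6, against 176, 166 and 461 units on WT arrays 4 to 6. Array 6 was the high one in each group and in both probe sets, and at each of the numbers 4, 5 and 6 the Foggy array read lower than the WT array. The groups overlapped, and the differences were -0.32 ± 0.36 (adjusted p = 0.569) and -0.56 ± 0.44 (adjusted p = 0.390). With the title number as a replicate block S1_at passed (limma adjusted p = 0.00734) and A1_at did not. The numbers were not taken as pairs, because deviations from the group means correlated by only 0.0612 for number 4. For numbers 5 and 6 they correlated by 0.278 and 0.355, above the 0.181 to 0.237 of the 12-somite arrays. Whether S1_at passed therefore depends on this choice. The A1_at probe set read 290, 262 and 299 units on Foggy arrays 1 to 3, against 358 units on WT array 1. The S1_at probe set read 149, 133 and 152 units on the same Foggy arrays, against 203 units on WT array 1. A probe set annotated jointly to hsp90aa1.2 and hsp90aa1.1 read 841, 660 and 1001 units on Foggy arrays 4 to 6, against 1651, 1769 and 1714 units on WT arrays 4 to 6, which is the order of hsp90aa1.1. At 12 somites the joint probe set read 474, 424 and 422 units in DelCter embryos, against 487, 477 and 624 units in control RNA embryos. It did not rise there with hsp90aa1.2 (-0.25 ± 0.14, limma adjusted p = 0.275). The Foggy effect in numbers 4 to 6 minus the DelCter effect was -1.08 ± 0.40 for A1_at (adjusted p = 0.0861) and -1.43 ± 0.49 for S1_at (adjusted p = 0.0616). Without Foggy array 6 both passed (adjusted p = 0.0130 and 0.00266), and so did A1_at without WT array 4 (adjusted p = 0.0464) and S1_at without WT array 5 (adjusted p = 0.0396). Without WT array 6 they were -0.67 (adjusted p = 0.191) and -0.99 (adjusted p = 0.149).

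hspe1 encodes Hsp10, the lid of the mitochondrial Hsp60 chamber, and was higher in DelCter embryos. It read 1371, 1291 and 1325 units in DelCter embryos, against 827, 914 and 970 units in control RNA embryos. The groups did not overlap and the rise was 0.55 ± 0.12 (SE, n = 3 each, limma adjusted p = 0.0142). On Foggy arrays 4 to 6 it read 2219, 1834 and 2230 units, against 1956, 1763 and 1933 units on WT arrays 4 to 6. These groups overlapped, and the difference of 0.15 had a 95% interval of -0.12 to 0.42 (adjusted p = 0.406). In the first set hspe1 read 776, 842 and 807 units on Foggy arrays, against 893 units on WT array 1. hspd1, the Hsp60 partner whose gene adjoins hspe1, was named after its values were seen: its differences were -0.07 ± 0.13 in Foggy embryos 4 to 6 (adjusted p = 0.726) and 0.41 ± 0.13 in DelCter embryos (adjusted p = 0.0591).

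hsp90b1 encodes Grp94, the Hsp90 of the endoplasmic reticulum, which folds secreted and membrane proteins. It read 222, 207 and 279 units on Foggy arrays 4 to 6, against 438, 444 and 636 units on WT arrays 4 to 6. The groups did not overlap, and hsp90b1 fell by 1.01 on the log2 scale (SE 0.16, n = 3 each, limma adjusted p = 0.0037). On Foggy arrays 1 to 3 it read 546, 538 and 573 units, against 860 units on the single WT array, a difference of -0.67 ± 0.21 that did not pass the test (adjusted p = 0.242). The Foggy effects in the 2 sets differed by -0.35 (95% interval -0.90 to 0.21, adjusted p = 0.483). In DelCter embryos hsp90b1 read 97.7, 97.8 and 95.6 units, against 59.7, 81.4 and 83.4 units in control RNA embryos, with no overlap and a difference of 0.33 ± 0.13 that did not pass (adjusted p = 0.149). The effects at the 2 stages differed by -1.38 ± 0.20 (adjusted p = 0.00023).

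**Figure D2:**
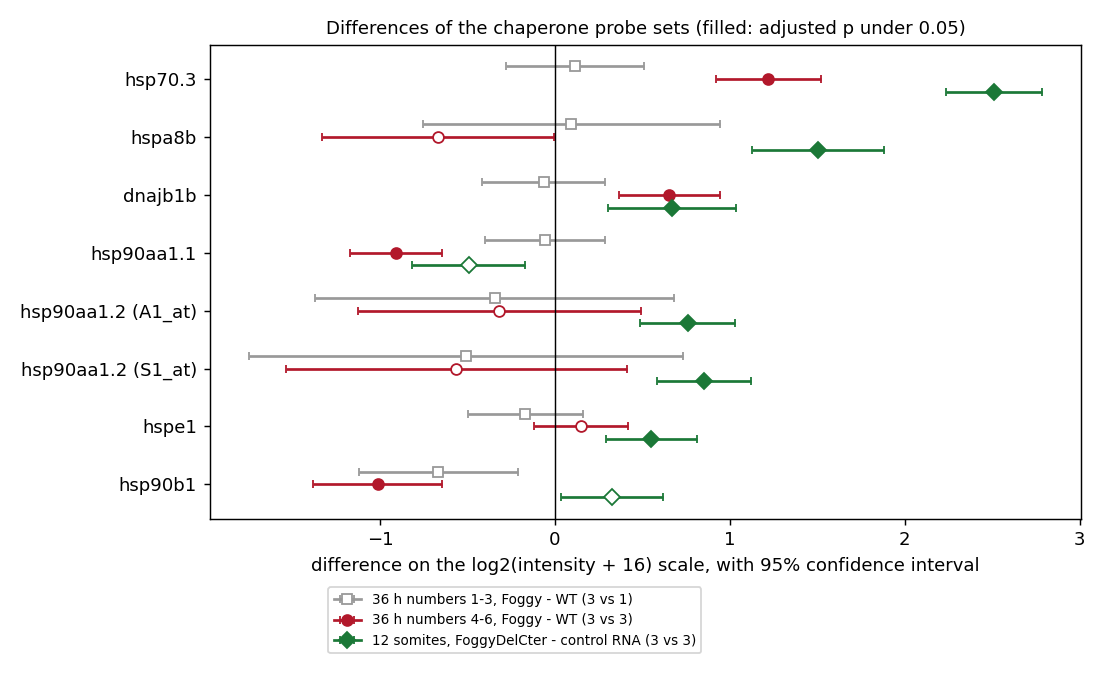
Differences of the 8 probe sets on the log2(intensity + 16) scale with 95% confidence intervals, for Foggy minus WT in numbers 1 to 3 (squares) and 4 to 6 (circles) at 36 h and for DelCter minus control RNA at 12 somites (diamonds); filled symbols have an adjusted p under 0.05. hsp70.3 and dnajb1b are filled on the right in both comparisons with 3 arrays a group, and hsp90b1 lies at -1.01 in Foggy 4 to 6 and at 0.33 in DelCter.

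Counted over the 8 probe sets, 2 were called higher and 2 lower in Foggy embryos 4 to 6 at an adjusted p under 0.05, while 4 were not called. Over all 10851 probe sets tested, the called share was 19.3%, made up of 8.96% higher and 10.4% lower. In DelCter embryos 6 of the 8 were called higher and none lower by limma, with all 8 at an unadjusted p under 0.05. The called share over all probe sets there was 11.3%, with 3.72% higher and 7.55% lower. The median difference of the 8 probe sets was -0.44 in Foggy embryos 4 to 6, against 0.06 over all probe sets tested. In DelCter embryos it was 0.71, against -0.02 over all. The members were chosen with earlier results of these data known. These counts and medians therefore cannot show that the members changed more often than other probe sets. In Foggy embryos 1 to 3, with 1 WT array, limma called none of the 8, with 1 (hsp90b1) at an unadjusted p under 0.05, and 0.728% of all probe sets.

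With both 36 h sets in 1 fit and the set as a block, hsp70.3 was higher (0.85 ± 0.18, limma adjusted p = 0.0111). In it hsp90aa1.1 (-0.62 ± 0.15, adjusted p = 0.0172) and hsp90b1 (-0.90 ± 0.13, adjusted p = 0.0011) were lower. That fit uses the arrays of numbers 4 to 6 again and takes 1 Foggy effect for both sets. Its calls are thus no separate support, and its values mix the differences of numbers 4 to 6 and 1 to 3. These were 1.22 and 0.11 for hsp70.3, and -0.91 and -0.06 for hsp90aa1.1. dnajb1b, at 0.41 ± 0.13, did not pass in that fit (adjusted p = 0.0588), in which 13.2% of all probe sets were called. It passed there at an added constant of 64 (adjusted p = 0.0402), with the 60th percentile filter (adjusted p = 0.0469) and with a trended robust prior (adjusted p = 0.0429). Without WT array 1 dnajb1b passed as well (0.66 ± 0.11). The Foggy effect then comes from numbers 4 to 6 alone, while Foggy arrays 1 to 3 still add to the spread. hsp90aa1.1 lost its call in the block fit without WT array 4, Foggy array 4 or Foggy array 5 (limma adjusted p 0.0501 to 0.0535). The Foggy effect differed between the sets for 2 of the 8, hsp70.3 and hsp90aa1.1, beside 3.28% of all probe sets. That test takes the spread of the single WT array of numbers 1 to 3 to be that of the other groups, and for hsp70.3 the effect in numbers 1 to 3 comes from signal within the tag controls. The call of this difference was lost in 9 of 15 alternative runs for hsp90aa1.1 and in 1 of 14 for hsp70.3. The Foggy effect in numbers 4 to 6 differed from the DelCter effect for 3 of the 8, hsp70.3, hspa8b and hsp90b1, beside 13% of all.

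WT embryos 4 to 6 and control RNA embryos differ in age and injection, which cannot be told apart. Their titles name the same tissues, so whether the material differed as well cannot be told from the titles. Between them 6 of the 8 probe sets were higher at 36 h, 1 was lower and 1 was not called, beside 60.8% of all probe sets called, 27.1% higher and 33.7% lower. hsp90b1 averaged 506 ± 113 units in WT embryos 4 to 6 and 74.8 ± 13.1 units in control RNA embryos (SD, n = 3 each), a difference of 2.48 ± 0.14 (SE). The other higher probe sets were the 2 of hsp90aa1.2 (1.88 and 2.05), hsp90aa1.1 (1.19), hspe1 (0.97) and hspa8b. As hspa8b was within the tag controls on all 3 control RNA arrays, it was at least 1.77-fold higher at 36 h, and it lost its call without WT array 6 (adjusted p = 0.109) or control array 2 (adjusted p = 0.101). dnajb1b was lower at 36 h, with a difference of -0.75 ± 0.15, and hsp70.3 did not pass the test (-0.12 ± 0.12).

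Between Foggy arrays 1 to 3 and Foggy arrays 4 to 6, which carry the same genotype label, 6 of the 8 probe sets differed, beside 70.6% of all probe sets, 33.6% higher and 36.9% lower in numbers 1 to 3. hsp90aa1.1 averaged 198 ± 16.9 units in numbers 1 to 3 and 1260 ± 102 units in numbers 4 to 6 (SD, n = 3 each), the largest difference of the 8 at -2.52 ± 0.11 (SE). dnajb1b (-1.39) and hspe1 (-1.15) were lower in numbers 1 to 3, and hsp90b1 (1.25) was higher. hsp70.3 was within the tag controls on all 3 Foggy arrays 1 to 3, so it was at least 2.45-fold lower there (adjusted p = 3.79e-07). hspa8b was called higher (0.94), but exceeded the tag controls on 3 of 3 Foggy arrays 1 to 3 and on 1 of 3 Foggy arrays 4 to 6. Array measures differed between the sets as well: the median intensity was 65.7 to 66.4 units in numbers 1 to 3 and 47.6 to 53.1 units in numbers 4 to 6, and the log2 ratio of 3' to 5' GAPDH control signal was 0.83 to 0.95 and 0.52 to 0.84. The 0.84 was that of Foggy array 4. At 12 somites this ratio was 0.63, 0.60 and 0.89 on the DelCter arrays and 0.63, 0.42 and 0.43 on the control RNA arrays. The part of these measures in the differences, at either stage, was not tested. The cofactor unc45b, named after its values were seen, also differed between these sets, by -1.95 ± 0.13.

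Other genes of the same systems are given next, by compartment, with the called shares over all probe sets given above as their background. Of 22 genes on the array listed as other cytosolic chaperones, 19 were tested at 36 h, and in Foggy embryos 4 to 6 1 was higher and 1 lower. This list also holds serpinh1b, named after its values were seen, whose product lies in the endoplasmic reticulum. The small heat shock protein gene hspb1, whose product holds unfolded proteins in solution, averaged 1345 ± 42.0 units in Foggy embryos 4 to 6 and 920 ± 75.7 units in WT embryos 4 to 6 (SD, n = 3 each), a rise of 0.49 ± 0.11 (adjusted p = 0.0133). hspb8, a small heat shock protein that acts with Bag3 in clearing damaged proteins, fell by 0.51 (SE 0.10, adjusted p = 0.0107). In DelCter embryos 18 were tested and 1 was higher, the J-domain gene dnajb6b (0.56 ± 0.12, adjusted p = 0.0110). Over these lists the median difference was -0.02 in Foggy embryos 4 to 6 and 0.10 in DelCter embryos.

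The constitutive relatives of the members, named after their values were seen, did not pass the test. hspa8, the constitutive cytosolic Hsp70, differed by -0.12 ± 0.12 in Foggy embryos 4 to 6 (adjusted p = 0.527) and by 0.07 ± 0.14 in DelCter embryos (adjusted p = 0.778). hsp90ab1, the constitutive cytosolic Hsp90, differed by -0.13 ± 0.11 (adjusted p = 0.420) and -0.13 ± 0.14 (adjusted p = 0.592) in the same comparisons.

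Of the cofactors of Hsp70 and Hsp90 and the heat shock factor genes, 25 were tested in Foggy embryos 4 to 6 and 26 in DelCter embryos. In Foggy embryos 4 to 6 hsbp1b, which encodes a protein that binds heat shock factor, was higher (0.52 ± 0.12, adjusted p = 0.0170) and the phosphatase gene ppp5c was lower (-0.37 ± 0.10, adjusted p = 0.0345). In DelCter embryos both genes for p23, the cochaperone that stabilises the closed form of Hsp90, were higher: ptges3b by 0.48 ± 0.14 (adjusted p = 0.0433) and ptges3a by 0.46 ± 0.13 (adjusted p = 0.0446). hsf2, named after its values were seen, did not pass in either (0.27 and 0.38, adjusted p = 0.151 and 0.0847), and the medians of the list were 0.03 and -0.01.

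Of 16 mitochondrial quality control genes, 2 were higher and 1 lower in Foggy embryos 4 to 6, and 2 were higher and none lower in DelCter embryos. grpel2, a nucleotide exchange factor of mitochondrial Hsp70, was higher in both, by 0.37 ± 0.11 in Foggy embryos 4 to 6 (adjusted p = 0.0396) and by 0.57 ± 0.13 in DelCter embryos (adjusted p = 0.0162). dnajc19, a J-domain protein of the import motor (0.43 ± 0.11, adjusted p = 0.0295), was the other higher gene in Foggy embryos 4 to 6, and the prohibitin gene phb2b was the lower one (-0.42 ± 0.13, adjusted p = 0.0481). The matrix protease gene lonp1 was the other higher one in DelCter embryos (0.47 ± 0.13, adjusted p = 0.0363). The list medians were 0.11 and 0.22.

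Of 40 endoplasmic reticulum folding and stress genes tested beside hsp90b1, 7 were lower and 1 higher in Foggy embryos 4 to 6. The transcription factor genes atf4a (-0.76 ± 0.10, adjusted p = 0.0013) and atf4b (-0.83 ± 0.14, adjusted p = 0.0054), which act in the integrated stress response, were among the lower. dnajb11, the J-domain partner of BiP (-0.50 ± 0.10, adjusted p = 0.0102), and calr3b, of the calreticulin family (-0.55 ± 0.13, adjusted p = 0.0186), were lower too. The remaining 3, named after their values were seen, were hspa5, which encodes BiP, the Hsp70 of this compartment (-0.49 ± 0.12, adjusted p = 0.0250), and the disulfide isomerase genes pdia3 (-0.47) and pdia4 (-0.53). os9, which encodes a lectin of protein quality control, was the higher one (0.59 ± 0.12, adjusted p = 0.0102).

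In DelCter embryos 5 of 40 genes of that compartment were lower and none higher. calr3b was lower again (-0.84 ± 0.12, adjusted p = 0.0015), beside the oxidase gene ero1b (-0.74 ± 0.14, adjusted p = 0.0087), dnajc3a (-0.63 ± 0.16, adjusted p = 0.0313) and the stress kinase gene eif2ak3, also known as PERK (-0.54 ± 0.13, adjusted p = 0.0211). hspa5 did not pass there (-0.28 ± 0.13, adjusted p = 0.204). The list medians were -0.06 in Foggy embryos 4 to 6 and -0.11 in DelCter embryos. hsp90b1, at -1.01 and 0.33, lay below all tested genes of this list in Foggy embryos 4 to 6 and above all of them in DelCter embryos. The list leaves out serpinh1b, named after its values were seen, whose product Hsp47 also lies in the endoplasmic reticulum. In Foggy embryos 4 to 6 serpinh1b lay lower still, at -1.13 ± 0.39 (limma adjusted p = 0.0708).

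**Figure D3:**
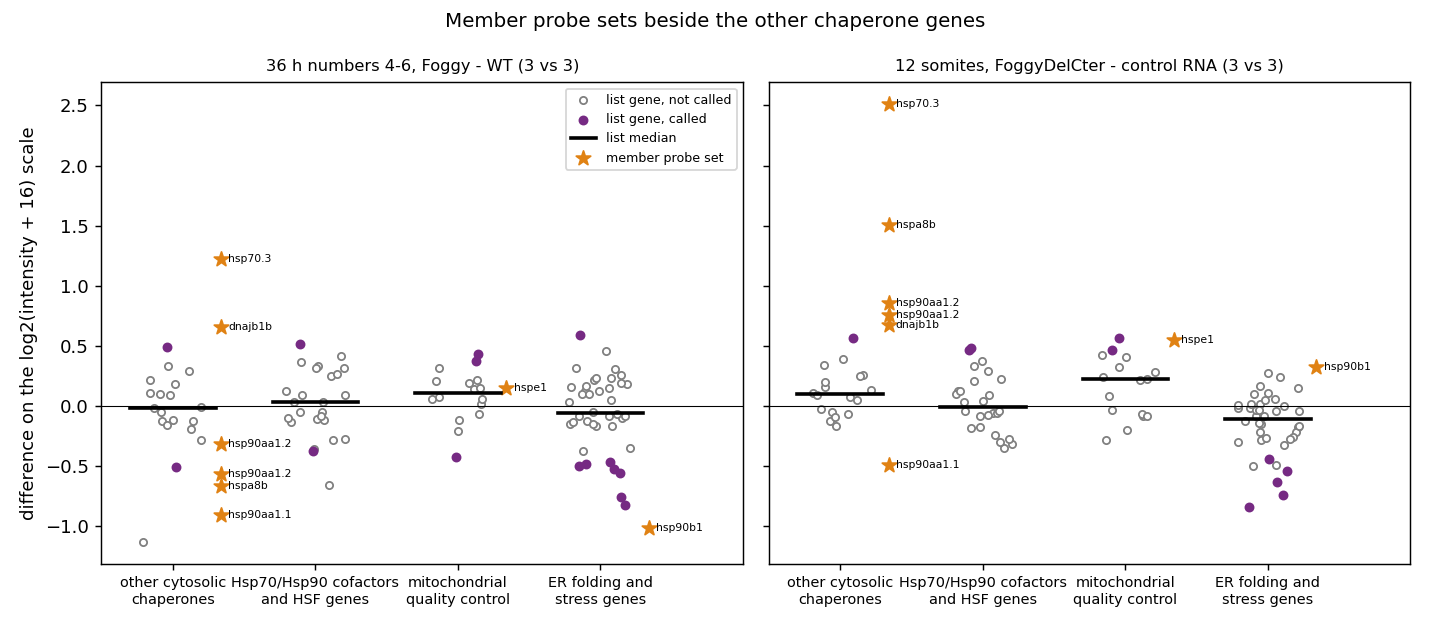
Differences on the log2(intensity + 16) scale of the tested genes of 4 chaperone lists (circles, filled where called at an adjusted p under 0.05, bars at the list medians) and of the member probe sets (stars) for Foggy minus WT in numbers 4 to 6 (left) and DelCter minus control RNA (right); the sideways scatter of circles has no meaning. The list medians lie between -0.06 and 0.11 in Foggy 4 to 6 and between -0.11 and 0.22 in DelCter, while hsp70.3 lies at 1.22 and 2.51.

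The summed skeletal muscle marker signal was lower in the Foggy and DelCter groups. The summed intensity of 33 muscle genes was 15158 to 22512 units on Foggy arrays 4 to 6, against 48956 to 76505 units on WT arrays 4 to 6. Of 32 tested there, 23 were lower and none higher, with a median difference of -1.25. mylpfa, the fast muscle myosin light chain gene (-3.13), and actc1b, a muscle actin gene (-1.32), were 2 of the lower ones, named after their values were seen. In DelCter embryos the sum was 2107 to 2744 units, against 3589 to 4544 units in control RNA embryos. Of 18 muscle genes tested there, 7 were lower, 1 was higher and 10 were not called, with a median difference of -0.43. Over all probe sets 7.55% were lower and 3.72% higher. On Foggy arrays 1 to 3 the sum was 3897 to 4066 units, against 9242 units on WT array 1. The median difference of 30 muscle genes was -0.78 in that set, with 26 negative and 4 positive.

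In all 3 comparisons the muscle sum was thus lower on every Foggy or DelCter array than on every WT or control array. hsp90aa1.1 and hsp90b1 went with it in Foggy embryos 4 to 6. In Foggy embryos 1 to 3, against a single WT array, the differences were -0.06 for hsp90aa1.1 and -0.67 for hsp90b1. In DelCter embryos neither passed the test, with hsp90aa1.1 lower (-0.49) and hsp90b1 higher (0.33), against the muscle sum. hsp70.3 and dnajb1b went against the muscle sum in Foggy embryos 4 to 6 and in DelCter embryos. The lens markers (3 genes) summed to 37.8 to 48.6 units on Foggy arrays 4 to 6, against 452 to 858 units on WT arrays 4 to 6. The part of muscle, lens or brain RNA in the chaperone differences was not tested.

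**Figure D4:**
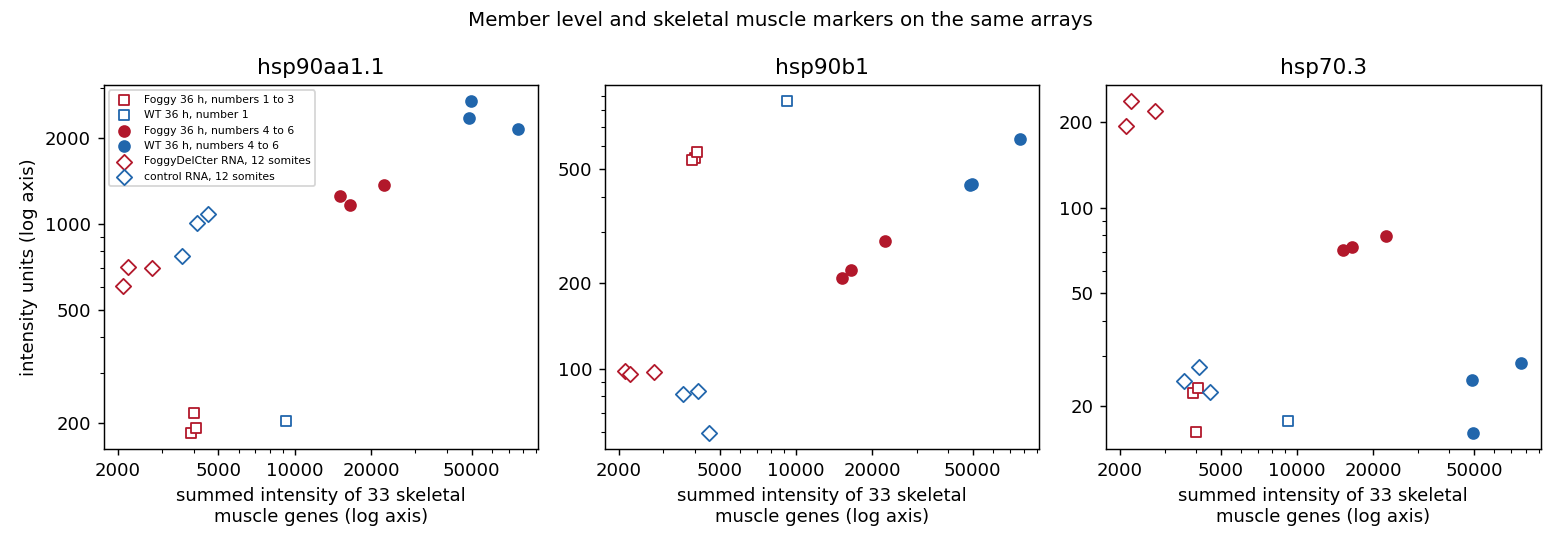
Intensity of hsp90aa1.1, hsp90b1 and hsp70.3 (log axis) against the summed intensity of 33 skeletal muscle genes (log axis), 1 point per array; red marks Foggy or DelCter and blue WT or control RNA. The Foggy 4 to 6 arrays (15158 to 22512 units on the muscle axis) lie below the WT 4 to 6 arrays for hsp90aa1.1 and hsp90b1 and above them for hsp70.3.

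The genes outside the members whose values most resembled each member were found by Pearson's r over the 16 arrays, each value centred on its array set. These r describe arrays that share genotype and set, and all 3 stage and set groups enter them. For hsp70.3 they were ptgdsb.2 (0.983), the ferritin gene fthl27 (0.957) and sh3bp5la (0.956), and ptgdsb.2 averaged 513 units in DelCter embryos against 104 units in control RNA embryos. For hsp90aa1.1 they were the glutamate transporter gene slc1a2b (0.966), si:ch211-132d3.4 (0.944) and the growth factor gene mdkb (0.943), each lower in Foggy embryos 4 to 6 and in DelCter embryos than in their controls. For hsp90b1 they were plscr3b (0.938), fxyd11 (0.927) and the fast muscle troponin gene tnnt3a (0.922).

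The remaining members had other nearest genes. The 2 probe sets of hsp90aa1.2 shared anxa5b (0.935 and 0.955) and si:dkeyp-1h4.9 (0.960 and 0.945) among their 3 nearest. dnajb1b was nearest to thap4 (0.945), cited4a (0.931) and hopx (0.918). hspa8b was nearest to the creatine kinase gene ckbb (0.937), prdx1 (0.912) and pik3r3b (0.894), and hspe1 to the proton pump gene atp6v1g1 (0.931), cldn7b (0.917) and zgc:56095 (0.915). Members were left out of this ranking. Between different member genes r ran from -0.811 (hsp70.3 and hsp90aa1.1) to 0.884 (hsp70.3 and hspe1).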

How the data were processed

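The values were the authors' deposited intensities, on a linear scale, 1 per probe set and array. The sources used here do not name the summarisation software. From the values, each array had been scaled to a common trimmed mean (2% off each end) of about 150.0 units. The 36 h arrays were quantile normalized together, the 12-somite arrays were used as deposited, and fits of all 16 arrays were quantile normalized together. Then log2(intensity + 16) was taken, probe sets under the 30th percentile of mean intensity were left out (10851 of 15502 tested), and limma 3.58.1 in R 4.3.3 was fitted with Benjamini-Hochberg adjustment, calling an adjusted p under 0.05. On simulated data in the 36 h design for numbers 4 to 6, 77.6% of probe sets changed by 1 on the log2 scale were called, and in the 12-somite design 84.9%. The simulated noise was independent between probe sets, and fewer probe sets were changed than were called in the data. The simulated arrays of numbers 4 to 6 were normalized without the other 36 h arrays. These shares therefore need not hold for the fits reported here.

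Probe sets were named by the platform annotation, with 1 symbol for 10795, several for 135, none for 4572 and 1 symbol updated. Besides the members, up to 4 called genes with the smallest p in each direction were named per chaperone list and comparison, and other names are marked. The members and lists were chosen with earlier results of these data known. At 12 somites the deviations from the group means of same-numbered arrays correlated (r = 0.237, 0.230 and 0.181 for numbers 1, 2 and 3), so a fit with the number as a block is given where it changed a call. Alternatives were another normalization, added constants of 1 and 64, other filters, blocks, another variance prior and leaving out each array.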

Additional observations from a re-analysis of the deposited data

Results flagged for a closer look

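Dixon's test on single arrays was run on 16 combinations of member probe set and 36 h group. Each group pooled both array sets, and 70.6% of all probe sets differed between the Foggy arrays of these sets. The usual rate of about 1 in 20 marked by chance assumes arrays of 1 kind, so it does not hold here. In the 4 WT arrays hsp90aa1.1 was low on array 1, with a gap of 0.912 of the whole range, and so was hspe1, with a gap of 0.867. That array is the 1 WT array of numbers 1 to 3, so the test cannot tell an outlying array from the difference between the sets. In the 6 Foggy arrays hsp90aa1.2 was high on array 6 in its S1_at probe set, with a gap of 0.673 of the range. No cause was tested for these values.

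The Foggy effect differed between the 36 h sets, numbers 4 to 6 minus numbers 1 to 3, for hsp70.3 by 1.11 (adjusted p = 0.0212) and for hsp90aa1.1 by -0.85 (adjusted p = 0.0369), with 1 WT array in numbers 1 to 3, whose spread is taken to be that of the other groups. The hsp90aa1.1 call was lost in 9 of 15 alternative runs and the hsp70.3 call in 1 of 14. hsp70.3 was within the tag controls on every array of numbers 1 to 3. hsp70.3 was higher on 3 of 3 Foggy arrays than on any WT array in numbers 4 to 6, and hsp90aa1.1 was lower on 3 of 3.

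The Foggy effect in numbers 4 to 6 minus the DelCter effect was -1.14 for hsp70.3 (adjusted p = 0.0004), -2.19 for hspa8b (adjusted p = 0.00059) and -1.38 for hsp90b1 (adjusted p = 0.00023). hsp70.3 was higher on all Foggy arrays 4 to 6 and all DelCter arrays than on their controls. hspa8b and hsp90b1 read above all their controls only on the DelCter arrays. The hsp90b1 difference there did not pass the test (0.33, limma adjusted p = 0.149). Stage and the kind of perturbation differ together between these comparisons and cannot be told apart. Whether the tissue differed as well cannot be told from the titles, which name the same tissues.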

How the results depend on the processing

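Of 961 alternative values of the 8 probe sets, 889 kept their direction and side of the threshold, 26 gained a call, 27 lost one and 19 changed sign. In Foggy embryos 4 to 6 the calls of dnajb1b, hsp90aa1.1 and hsp90b1 held in every alternative run, and that of hsp70.3 in every one but the 60th percentile filter, which removed it and left 1 member called higher. The title number as a replicate block gave 4 members lower, adding hspa8b (adjusted p = 0.0138) and the S1_at probe set of hsp90aa1.2 (adjusted p = 0.00734). Same-numbered arrays correlated by 0.0612, 0.278 and 0.355 for numbers 4, 5 and 6 there. At 12 somites the range was 0.181 to 0.237. Only number 4 fell below it, and for that reason the numbers were not taken as pairs. With that block 2728 probe sets were called, against 2099 without.

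At 12 somites 750 probe sets were called without a filter, against 1223, and 1 member (hsp90aa1.1) was called lower with another normalization, an added constant of 64, the 60th percentile filter, a trended robust prior, the replicate block and the fit of all 16 arrays. The block changed no other member's call there. The 60th percentile filter removed hspa8b and the S1_at probe set of hsp90aa1.2, which left 4 members called higher. dnajb1b lost its call at a constant of 1 (adjusted p = 0.0676) and without a filter (adjusted p = 0.0635). With no set block 24 probe sets were called at 36 h, against 1428, and hspe1 turned to -0.22. The difference between the sets was called for 612 probe sets at a constant of 64 and 574 with a trended robust prior, against 356. The A1_at probe set of hsp90aa1.2 turned to -0.0082 there under another normalization, and the stage difference of dnajb1b turned to -0.020 at a constant of 64. With the 60th percentile filter 4120 probe sets differed between WT and control RNA and 4673 between the Foggy sets, where fewer were tested. On the values as deposited 4525 probe sets were higher and 3190 lower in Foggy 1 to 3 than in Foggy 4 to 6, against 3649 and 4008.

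Leaving out each array gave 1180 to 1587 calls in Foggy 4 to 6 (2 members higher, 2 to 3 lower), 684 to 2848 with the set block (684 without WT array 4 and 2848 without WT array 1), 168 to 434 between sets, 597 to 923 at 12 somites (5 to 6 members higher, 0 to 1 lower), 1108 to 1418 between stages, 5982 to 6631 for WT against control RNA and 7081 to 7871 between Foggy sets. Values that changed sign ranged from -0.65 to 0.094 for hsp90aa1.2 in Foggy 4 to 6, from -0.0021 to 0.15 for hspe1 with the set block, from -0.31 to 0.44 and -0.54 to 0.38 for the 2 hsp90aa1.2 probe sets between sets, from -0.20 to 0.16 for dnajb1b between stages, from -0.19 to 0.017 for hsp70.3 in WT against control RNA and from -0.46 to 0.28 for hsp90aa1.2 between Foggy sets. The call of hsp90aa1.1 between sets had an adjusted p of 0.0270 to 0.0777. The causes of these changes were not tested. Leaving out WT array 1 allows no difference between sets. Dim probe sets (hsp70.3, hspa8b) are limited by signal over background, and precision is limited by how many arrays there are.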
